A study of Mus musculus with 21 samples.

Results

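A set of 9 genes of the BCL2 family were followed through the RNA-Seq libraries of mouse cochlear cells: the anti-apoptotic genes *Bcl2*, *Bcl2l1* (BCL-XL), *Bcl2l2* (BCL-W) and *Mcl1*, the effector genes *Bax* and *Bak1*, and the BH3-only genes *Bcl2l11* (BIM), *Bbc3* (PUMA) and *Pmaip1* (NOXA). They were chosen by name as regulators of cell death, with earlier results of these data known, and make up 9 of the 52550 genes of the deposited count table. The libraries fall into 7 groups of 3 replicates. Spiral ganglion neurons (SGNs), which carry the signals of hair cells to the brainstem, were picked by hand at 5 ages, E15.5 and postnatal days P1, P8, P14 and P30, from ShhCre/+; Rosa26-CAG-loxp-stop-loxp-tdTomato/+ mice, in which Cre under control of the *Shh* locus turns on the red reporter. Hair cells (HCs) were taken at P12 from mice with Atoh1-CreER+ and the same reporter after tamoxifen, and they came from the cochlea and the vestibular organs together. The labels describe them as picked by hand and the methods as sorted by FACS, and each HC library was made from 1200 cells, against 69 to 195 for SGNs and 86 to 125 for glia. Glial cells were picked at P8 from the SGN area of vGlut3-iCreER/+ mice with the same reporter, also after tamoxifen. The strain is given as C57BL/6. The reporter was thus shared by all 7 groups, while the driver differed between the cell types and tamoxifen was given for HCs and glia only. Driver, tamoxifen and cell type cannot be told apart in any comparison of SGNs with HCs or glia. For HCs, cell number, the vestibular source and age cannot be told apart from these either, since no SGNs were taken at P12. The same holds for the way of collection if the HCs were sorted by FACS.

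Proteins of the BCL2 family decide whether the outer membrane of the mitochondrion stays closed. BAX and BAK form the pores, the anti-apoptotic proteins hold them in check, and BH3-only proteins relieve that check when a cell is stressed or deprived of trophic factor. Once the membrane opens, cytochrome c binds APAF1, and the complex activates caspase-9, which sets off the later steps of cell death. In the inner ear this pathway is known for the loss of surplus SGNs during development, when the neurons depend on neurotrophins from their targets.

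Libraries held between 10368240 and 37287489 counts on genes (median 20384100), so that a count of 0 leaves room for up to 3 counts, or 0.0805 to 0.289 CPM (counts scaled to a common library total). This limit takes each count as an independent read. Cell number and depth also differed between SGN ages. E15.5 libraries had 69 to 92 cells and 12887010 to 18737521 counts. P1 libraries had 140 to 195 cells and 21915914 to 33361246 counts, and P30 libraries 90 to 114 cells and 20384100 to 37287489 counts. The part of cell number and depth in the changes from E15.5 was not tested. Levels are given as RPKM, that is counts per kilobase of gene and CPM, scaled with the TMM factors of all 21 libraries. Changes are log2 fold changes (log2FC) from limma-voom fits. The labels of the cells were checked against marker genes. The summed RPKM of 7 SGN markers was 367.9 to 1474 in SGN libraries, 11.7 to 17.4 in HC libraries and 14 to 119 in glial libraries, and 5 HC markers summed to 701 to 751.5 in HC libraries and 14 to 88.1 in SGN libraries. The 5 glial markers summed to 5125 to 7283 in glial libraries. In SGN libraries they were not at a constant level, with 31.6 to 151 at E15.5, 27.6 to 68.7 at P1, 414 to 566 at P8, 82.9 to 201 at P14 and 3.24 to 68.9 at P30. Their part in the results below was not tested. Replicate 1 of E15.5 also carried 115.5 RPKM of 4 blood markers, against 0 in the other 2 libraries of that age. At P1, P8 and P30, replicate 1 had 19.3, 22.2 and 15.3 RPKM of them, and the other replicates of these ages 0 to 2.58. The 4 connective tissue markers summed to 58.7, 45.1, 31.2 and 15.9 RPKM in replicate 1 of P1, P8, P14 and P30. The other replicates of these ages had 0.0854 to 11.2 RPKM. Replicate 1 also had the highest *Mcl1* and *Bcl2* at each of these ages, and no link to the markers was tested. The labels do not say whether replicates were separate animals, so p-values measure the spread between these samples, which may be technical.

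**Figure D1:**
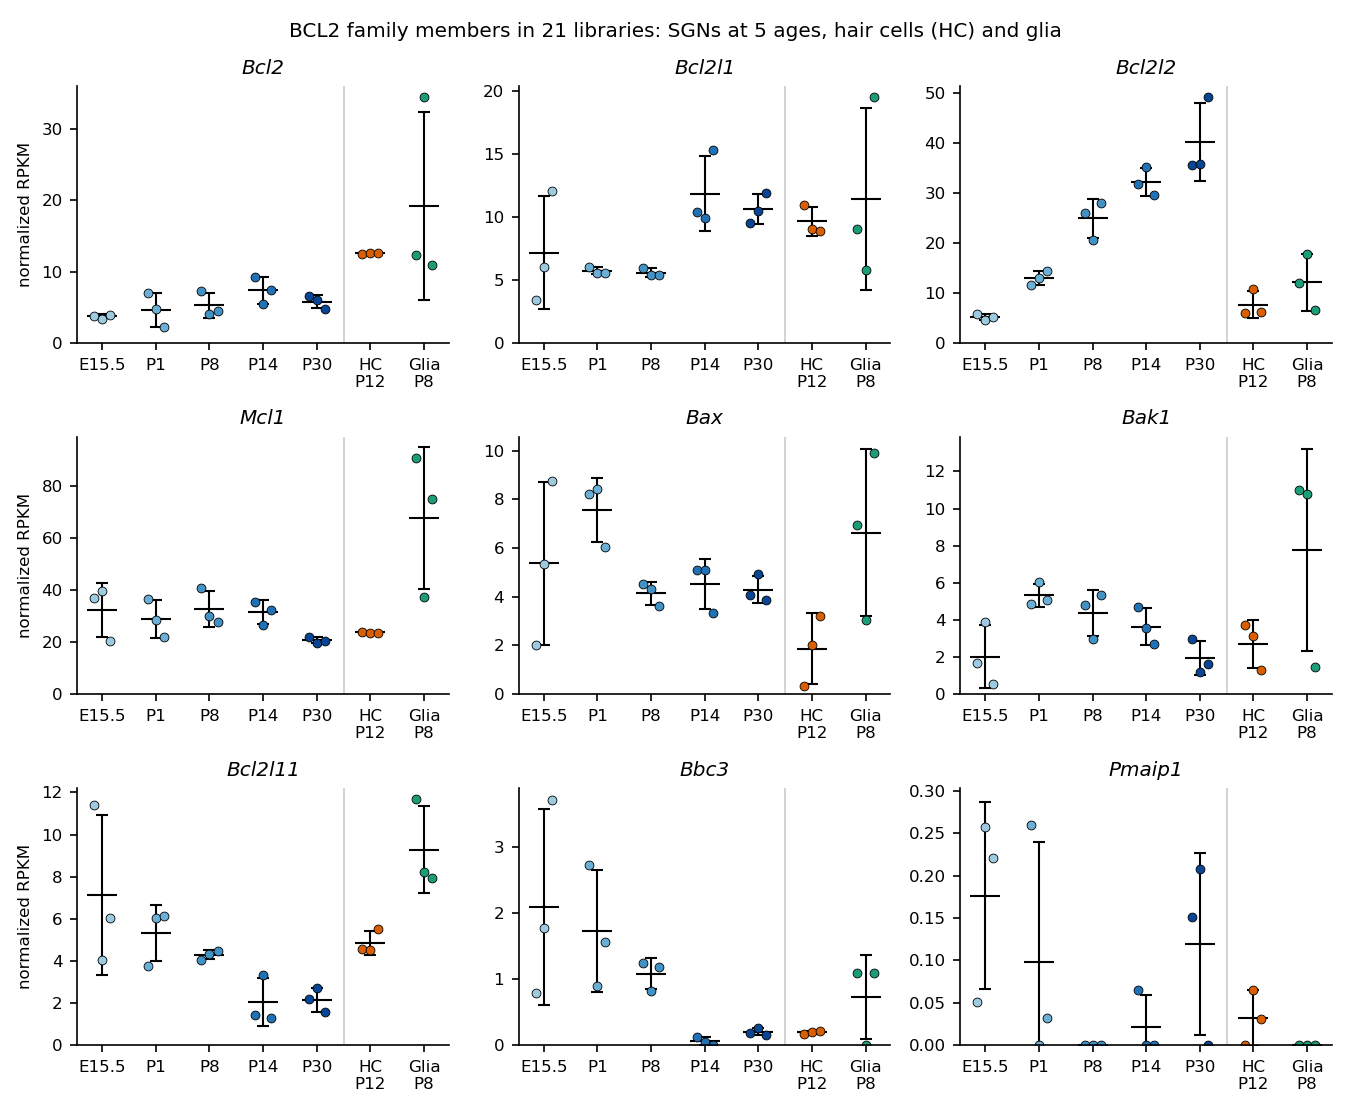
Normalized RPKM (linear axis from 0, one scale per panel) of each of the 9 genes in 21 libraries. Points are libraries, black bars the mean and SD of 3 replicates, and the grey line separates SGN ages from HCs and glia. *Bcl2l2* climbs from 4.7 to 5.84 at E15.5 to 35.7 to 49.3 at P30, *Bcl2l11* and *Bbc3* are low at P14 and P30, and *Pmaip1* stays under 0.3 in every library.

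The main change in SGNs was a rise of *Bcl2l2* together with a fall of *Bcl2l11* and *Bbc3*. From E15.5 to P30, *Bcl2l2* rose by a log2FC of 2.91 (SE 0.25, adjusted p 2.29e-07), *Bcl2l11* changed by -1.61 (SE 0.42, adjusted p 0.00564) and *Bbc3* by -3.20 (SE 0.94, adjusted p 0.012). These were 3 of the 8 genes that could be tested, where a 2-fold change and an adjusted p under 0.05 were reached by 34.6% of all 15113 genes, so a change between these ages was common among genes in general. *Pmaip1* did not reach the count filter (more than 1 CPM in all replicates of a group). The F test over the 5 ages called *Bcl2l1*, *Bcl2l2*, *Bcl2l11* and *Bbc3*, which is 4 of 8, against 37.8% of all genes at an adjusted p under 0.05.

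The 4 anti-apoptotic genes took different courses. *Bcl2l2* lies on chromosome 14 (GRCm38 chr14:54883377-54888234, + strand) and encodes BCL-W, a protein best known from mature neurons and the testis. Its counts were 388, 430 and 469 in the E15.5 libraries and 4776, 2907 and 4075 in the P30 libraries. In RPKM, the 3 libraries had 5.84, 4.7 and 5.12 at E15.5, 11.6, 13 and 14.5 at P1, 26.1, 20.7 and 28.1 at P8, 31.9, 35.2 and 29.6 at P14, and 35.7, 35.8 and 49.3 at P30. The ranges of the 5 ages did not overlap, and each age lay above the one before it. The means were 5.22 ± 0.575 (SD, n = 3) at E15.5 and 40.3 ± 7.80 (SD, n = 3) at P30. In TPM (counts per length, scaled to a common sum per library), E15.5 stayed below the later ages, but neighboring postnatal ages overlapped. P8 replicate 2 had 46 TPM, P14 replicate 2 had 28.2 and P30 replicate 1 had 42.

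Between neighboring ages, *Bcl2l2* was called from E15.5 to P1 (log2FC 1.32, SE 0.26, adjusted p 0.00537). It was the only one of 8 genes called there, with 8.26% of all genes called. With sample quality weights its log2FC was 1.34 and its adjusted p 0.0504. From P1 to P8 the log2FC was 0.94 (SE 0.19, adjusted p 0.00366), which passed the p threshold and not the 2-fold limit. None of the 8 genes was called at that step by limma-voom, where 7.44% of all genes were; 2 had an unadjusted p under 0.05, and edgeR and DESeq2 called 0. The later steps gave 0.39 (adjusted p 0.396) from P8 to P14 and 0.26 (adjusted p 0.895) from P14 to P30. Because the deposited annotation holds a readthrough gene, Gm20521, that shares 13.3% of the exon bases of *Bcl2l2*, reads there may not have been counted for *Bcl2l2*; Gm20521 itself had 0 counts in all 21 libraries.

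The stretch before the RefSeq start of *Bcl2l2* is shown because this gene changed most clearly with age. It covers GRCm38.p6 chr14:54883175-54883376 on the + strand, lies upstream of the gene, and holds no base of an annotated exon of *Bcl2l2*. Exons of other genes were not checked. GGGCGG, the core of a GC box, occurred once in the window of 250 bases before to 50 after the start when both strands were searched, and 35.7% of all 32851 windows held it. None of the other motifs searched, TATAAA, the CRE (TGACGTCA), the AP-1 site (TGANTCA), the FOXO letters (GTAAACA), the E-box (CACGTG) and the p53 decamer, was in this window.
*Bcl2l2* upstream: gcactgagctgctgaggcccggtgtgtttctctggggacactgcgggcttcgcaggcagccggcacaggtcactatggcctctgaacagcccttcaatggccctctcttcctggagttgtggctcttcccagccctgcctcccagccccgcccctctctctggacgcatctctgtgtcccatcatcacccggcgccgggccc

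*Mcl1* encodes MCL-1, a short-lived protein that neurons need from early development on. By mean RPKM it had the highest level of the 9 genes at E15.5, P1 and P8, in HCs and in glia. *Mcl1* lay just below *Bcl2l2* in P8 replicate 3 (27.8 against 28.1). Its RPKM was 36.9, 39.6 and 20.2 at E15.5, 36.4, 28.6 and 21.9 at P1, 40.7, 29.9 and 27.8 at P8, 35.4, 26.6 and 32.3 at P14, and 21.9, 19.8 and 20.4 at P30. The P30 libraries overlapped with the lowest libraries of E15.5 and P1 and lay below all those of P8 and P14. The log2FC from E15.5 to P30 was -0.59 (SE 0.27, adjusted p 0.0943), so a change with age did not pass the test, and the 95% interval ran from -1.17 to -0.011.

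*Bcl2l1* encodes BCL-XL, a guardian of immature neurons. The gene had 3.38, 6.01 and 12.1 RPKM in the E15.5 libraries, a wider spread than at any other SGN age. It then stayed between 5.4 and 6.04 RPKM in all 6 libraries of P1 and P8. At P14 it had 10.4, 9.88 and 15.3 RPKM and at P30 9.53, 10.5 and 11.9 RPKM, and these 2 ages did not overlap with P1 and P8. The F test over ages called it (adjusted p 0.0367), whereas the step from P8 to P14 had a log2FC of 1.04 (SE 0.30) with an adjusted p of 0.129. At that step limma-voom called 0 of 8 genes and 0.536% of all genes, 4 of the 8 had an unadjusted p under 0.05, and edgeR and DESeq2 called 0. With sample quality weights *Bcl2l1* was called at this step, and it was also called when E15.5 replicate 3, the library at 12.1 RPKM, was left out.

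*Bcl2*, the founding member of the family, was low in SGNs of every age. Its RPKM ran from 2.28 to 9.24 over the 15 SGN libraries, with means from 3.75 ± 0.298 (SD, n = 3) at E15.5 to 7.35 ± 1.92 (SD, n = 3) at P14. All neighboring ages overlapped. The log2FC from E15.5 to P30 was 0.61 (SE 0.38, adjusted p 0.211), with a 95% interval of -0.20 to 1.42.

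Set beside each other per length, the 4 anti-apoptotic genes changed their shares. *Mcl1* made up 48.8% to 73.9% of their summed RPKM in the E15.5 libraries and 23.6% to 29.8% in the P30 libraries. *Bcl2l2* made up 8.76% to 12.4% at E15.5, 32.6% to 42.8% at P8 and 48.4% to 57% at P30. For both genes, the shares of the E15.5 and P30 libraries did not overlap. *Bcl2* stayed between 5.15% and 11.5% over all SGN libraries. The sum of the 4 genes was 48.4 ± 6.29 RPKM (SD, n = 3) at E15.5, 68.6 ± 10.3 at P8, 82.9 ± 5.13 at P14 and 77.4 ± 7.81 at P30. These shares and sums are descriptions and were not tested.

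**Figure D2:**
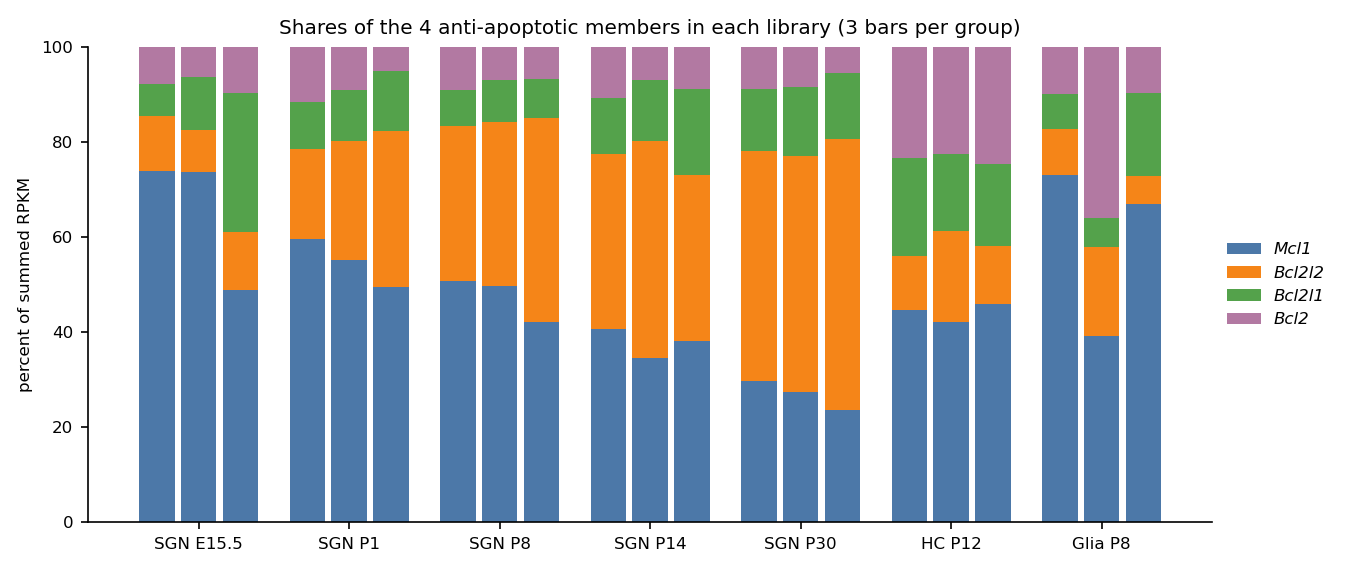
Percent of the summed RPKM of the 4 anti-apoptotic genes that each contributed, one stacked bar per library and 3 libraries per group. The *Bcl2l2* share is 8.76% to 12.4% at E15.5 and 48.4% to 57% at P30, and *Bcl2* takes 22.4% to 24.6% in HCs.

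The effector genes showed no called change with age. *Bax*, needed for the death of many kinds of developing neuron, had 2, 5.36 and 8.74 RPKM at E15.5, 8.22, 8.45 and 6.06 at P1, 4.5, 4.33 and 3.6 at P8, 5.11, 5.09 and 3.33 at P14, and 4.08, 4.92 and 3.87 at P30. All P1 libraries lay above all libraries of the later ages, while those of E15.5 overlapped with every age. The log2FC was -0.86 (SE 0.40, adjusted p 0.186) from P1 to P8 and -0.23 (SE 0.50, adjusted p 0.736) from E15.5 to P30. *Bak1*, the other pore former, had 1.65, 3.87 and 0.526 RPKM at E15.5 and 4.86, 6.04 and 5.05 RPKM at P1. These ages did not overlap, but the log2FC of 1.81 (SE 0.59) had an adjusted p of 0.0576. Without E15.5 replicate 2, the highest of its age, *Bak1* was called at this step. At P30 it had 2.98, 1.19 and 1.64 RPKM, which overlapped with E15.5 (log2FC 0.33, SE 0.70, adjusted p 0.731). Ggnbp1, on the opposite strand, shares 18.2% of the exon bases of *Bak1* and had 4 to 596 counts, so *Bak1* counts are uncertain where strand was not used. Gm45808 shares 12.2% of the exon bases of *Bax* and had 0 counts.

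*Bcl2l11* encodes BIM, the BH3-only protein that rises in neurons deprived of trophic factor. Its RPKM was 11.4, 4.03 and 6.03 at E15.5, 3.77, 6.03 and 6.12 at P1, 4.06, 4.31 and 4.47 at P8, 1.43, 3.34 and 1.31 at P14, and 2.16, 2.72 and 1.55 at P30. The 9 libraries of the 3 younger ages lay between 3.77 and 11.4 RPKM, and the 6 libraries of P14 and P30 between 1.31 and 3.34. In RPKM the older ages thus lay below all younger ones. In TPM they did not, since P30 replicate 2 had 4.45, above E15.5 replicate 2 at 3.64 and P8 replicate 3 at 4.34. From P8 to P14, the step at which the RPKM ranges separated, the log2FC was -1.21 (SE 0.45) and its adjusted p 0.267. Over E15.5 to P30 the call held under all 8 alternative fits (log2FC -2.10 to -1.57) and whichever of 15 libraries was left out (-1.99 to -1.27).

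*Bbc3* encodes PUMA, a BH3-only protein under control of p53 and of FOXO factors. It was a gene of few counts: 25, 77 and 162 at E15.5, 202, 48 and 78 at P1, 86, 52 and 62 at P8, 6, 2 and 0 at P14, and 12, 10 and 6 at P30. In RPKM it had 0.79, 1.77 and 3.71 at E15.5, 2.73, 0.898 and 1.57 at P1, 1.25, 0.814 and 1.18 at P8, 0.122, 0.0504 and 0 at P14, and 0.188, 0.259 and 0.152 at P30. Every library of E15.5, P1 and P8 was above every library of P14 and P30. The log2FC from P8 to P14 was -4.36 (SE 1.22) with an adjusted p of 0.111, while the change from E15.5 to P30 was called and stayed called under 8 alternative fits (log2FC -3.68 to -3.15) and 15 fits without 1 library (-3.68 to -2.65). Glial markers fell over the same step from 414 to 566 RPKM at P8 to 82.9 to 201 at P14, and their part in the fall was not tested.

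*Pmaip1* encodes NOXA, a p53 target that binds MCL-1. It had 0 to 24 counts per library. No count was found in any of the 3 P8 SGN libraries or in the 3 glial libraries. If each count was an independent read, this allows 0.0843 to 0.105 CPM and 0.152 to 0.289 CPM. Its highest values were 0.26 RPKM in a P1 library and 0.258 in an E15.5 library. A change was not detectable at this depth, and no test was made.

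The sequences before 2 starts are shown for the BH3-only genes because a window of *Bcl2l11* and a window of *Bbc3* held the same motif. These genes were picked for display after their fall with age was seen. No link between the motif and the fall was tested. RefSeq windows were matched for 8 of the 9 genes (13 windows, since some genes have several starts), and *Pmaip1* was not among them. GTAAACA, the letters bound by FOXO factors, was found in 2 of the 13 windows, one of *Bcl2l11* and one of *Bbc3*, and in 3.65% of all 32851 windows. The other windows of these genes did not hold it. The *Bcl2l11* stretch is GRCm38.p6 chr2:128125788-128126037 on the + strand and lies upstream of the gene, which spans chr2:128126038-128162547. The *Bbc3* stretch is chr7:16310011-16310260 on the + strand and lies in an intron of the gene (chr7:16308393-16318205), before one of its inner starts. Capitals mark the motif, in *Bcl2l11* as GTAAACA and in *Bbc3* as its reverse complement. A match is a description of the letters and not a binding site.
*Bcl2l11* upstream: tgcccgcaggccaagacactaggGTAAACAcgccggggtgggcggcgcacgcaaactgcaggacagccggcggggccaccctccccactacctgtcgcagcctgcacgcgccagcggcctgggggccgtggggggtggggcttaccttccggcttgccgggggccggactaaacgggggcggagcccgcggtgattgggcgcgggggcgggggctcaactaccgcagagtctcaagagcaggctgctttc
*Bbc3* upstream of an inner start: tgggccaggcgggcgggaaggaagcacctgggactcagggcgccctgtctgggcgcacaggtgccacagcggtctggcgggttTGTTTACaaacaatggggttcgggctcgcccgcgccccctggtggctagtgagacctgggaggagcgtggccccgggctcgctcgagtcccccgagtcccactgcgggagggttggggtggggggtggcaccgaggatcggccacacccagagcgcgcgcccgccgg

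The p53 decamer, found in 8.36% of all windows, was present in the window of *Bax* and in no window of the other 7 matched genes. CACGTG, in 7.15% of all windows, occurred in windows of *Bbc3* and *Bax*, and GGGCGG in windows of *Bcl2*, *Bcl2l11*, *Mcl1*, *Bbc3*, *Bax* and *Bcl2l2*.

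RPKM is per length of all annotated exons of a gene. Setting different genes of 1 library against each other assumes that this length fits the transcripts present, as do the shares and orders of genes above. At E15.5, *Bcl2* had 34.2 to 43.3 CPM and *Bcl2l2* 22.95 to 30.1, the reverse of their order in RPKM. In HC libraries, *Bcl2* had 156 to 159.5 CPM and *Mcl1* 109 to 112, also the reverse. The ratio of *Bcl2l2* to *Bcl2l11* was 0.513, 1.17 and 0.849 in the E15.5 libraries, 3.09, 2.15 and 2.36 at P1, 6.42, 4.79 and 6.29 at P8, 22.3, 10.6 and 22.6 at P14, and 16.5, 13.2 and 31.7 at P30. It increased from age to age without overlap up to P14, and P14 and P30 overlapped. In HCs it was 1.13 to 2.39 and in glia 0.82 to 2.18. The ratio of the 4 anti-apoptotic genes to the 3 BH3-only genes was 4.09 to 8.87 at E15.5, 5.725 to 9.05 at P1 and 11.6 to 15.1 at P8. It was 22.7 to 64.7 at P14 and 22.7 to 50.7 at P30. E15.5 overlapped with P1, and P14 with P30. This ratio was 8.91 to 11.7 in HCs and 9.7 to 12.4 in glia. The ratio of *Bax* to *Bcl2l1* was 0.592 to 0.891 at E15.5, 1.09 to 1.52 at P1, 0.666 to 0.802 at P8, 0.218 to 0.515 at P14 and 0.325 to 0.468 at P30. The ratio of *Bax* to *Bcl2* was 0.522 to 2.19 at E15.5 and 0.623 to 0.811 at P30, which overlapped. The ratio of *Bcl2l2* to *Bcl2l11* pairs a gene called higher with one called lower, so its rise restates those calls. Ratios of messenger RNA are not ratios of protein, and no test was made on them.

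**Figure D3:**
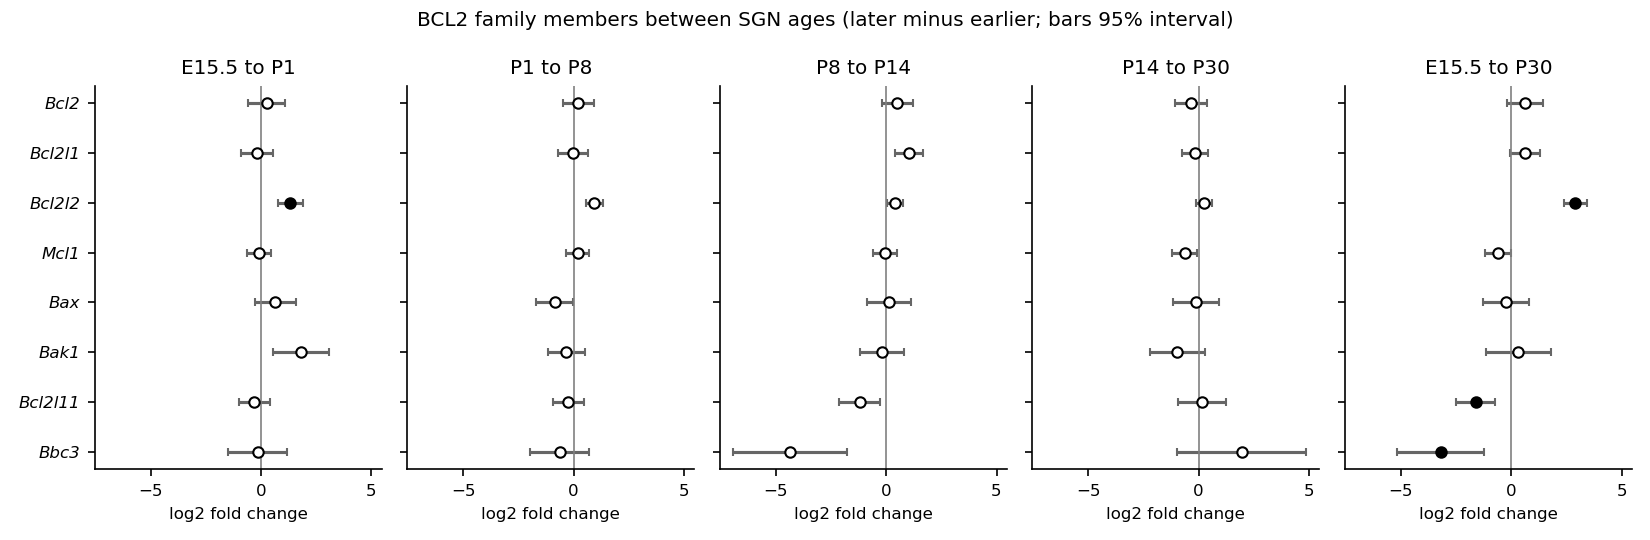
Log2 fold changes (later age minus earlier age) of the 8 tested genes at the 4 steps between neighboring ages and from E15.5 to P30. Points are limma-voom estimates, bars 95% intervals, and filled points genes called at a 2-fold change and an adjusted p under 0.05. *Bcl2l2* is filled from E15.5 to P1, and *Bcl2l2*, *Bcl2l11* and *Bbc3* are filled from E15.5 to P30.

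At the last step, P14 to P30, none of the 8 genes was called by limma-voom, and 0.0596% of all genes were; 1 gene, *Mcl1*, had an unadjusted p under 0.05, and edgeR and DESeq2 called 0. The largest estimates there were 1.95 (SE 1.39) for *Bbc3* and -0.96 (SE 0.60) for *Bak1*, with adjusted p values of 0.925 and 0.881.

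Genes that act at or after the opening of the mitochondrion were examined next. *Apaf1*, the scaffold of the apoptosome, had 2.02, 5.47 and 3.68 RPKM at E15.5 and 0.34, 0.439 and 0.657 RPKM at P30 (log2FC -3.04, SE 0.51, adjusted p 0.000217). Its step from E15.5 to P1 (log2FC -1.23, adjusted p 0.0326) did not hold with edgeR, where the adjusted p was 0.0658, nor without E15.5 replicates 2 or 3 or any 1 of the P1 replicates (log2FC -1.37 to -0.90). *Casp9*, the initiator caspase of the apoptosome, did not pass the test (log2FC 0.05, SE 0.41, adjusted p 0.94), with a 95% interval of -0.82 to 0.91. *Casp2*, an initiator caspase linked to p53 signalling, fell by 1.64 on the log2 scale (adjusted p 0.00435). *Casp6*, another caspase, had a log2FC of -2.63 (adjusted p 0.0394), and its call was lost without E15.5 replicate 2 or 3 or any P30 replicate (adjusted p 0.0612 to 0.112).

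Messenger RNAs of cytochrome c and of another mitochondrial protein rose. *Cycs* went from 7.57, 19.5 and 15 RPKM at E15.5 to 71.2, 86.3 and 86 RPKM at P30 (log2FC 2.53, SE 0.29, adjusted p 4.84e-06), and *Aifm1*, which encodes the flavoprotein AIF, had a log2FC of 2.09 (adjusted p 0.000108). Both also serve respiration. *Dffa*, which encodes the inhibitor of the caspase-activated nuclease, had a log2FC of 1.38 (adjusted p 0.0294), and this call was lost without E15.5 replicate 1 (log2FC 0.52) or P30 replicate 1 (1.26) and in 5 of 8 alternative fits, among them edgeR (adjusted p 0.117), DESeq2 (0.0805) and library size alone (0.136).

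**Figure D4:**
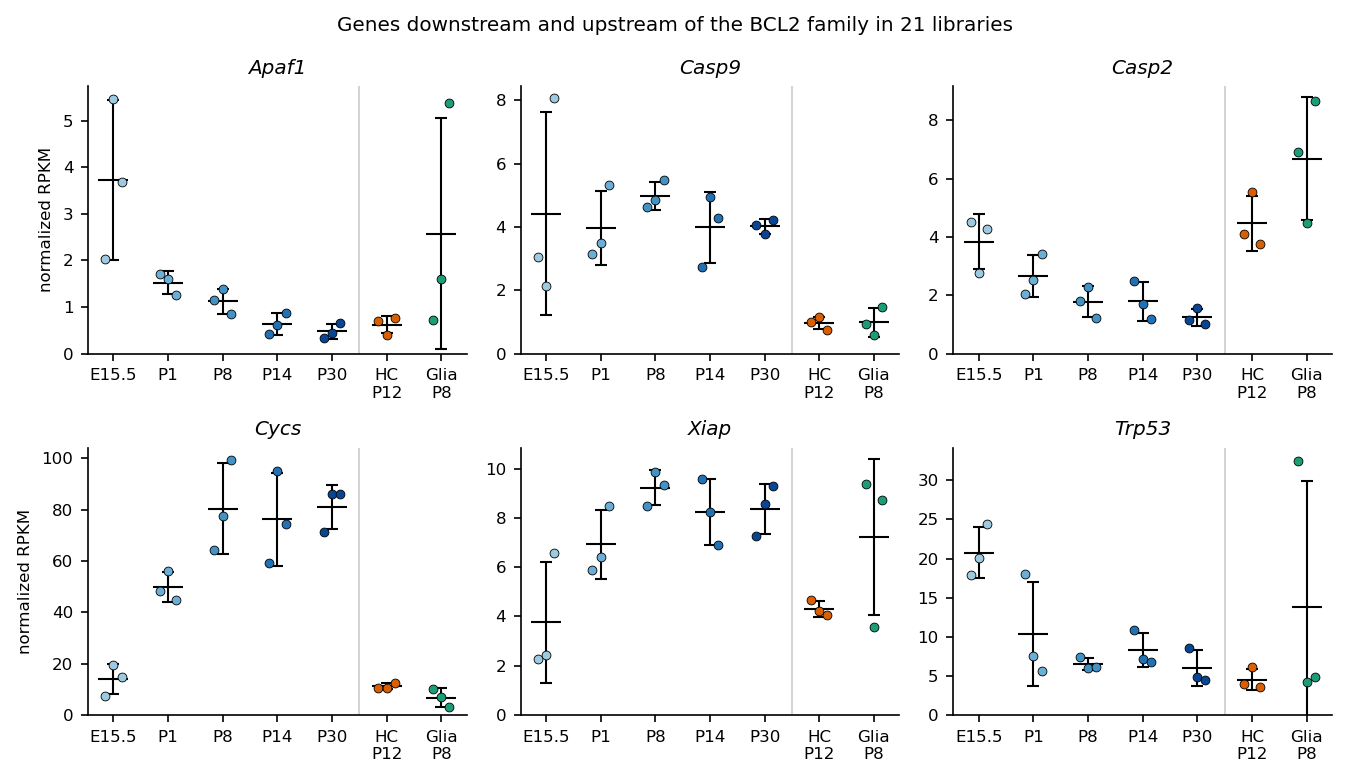
Normalized RPKM (linear axis from 0, one scale per panel) of *Apaf1*, *Casp9*, *Casp2*, *Cycs*, *Xiap* and *Trp53* in 21 libraries, with points for libraries and black bars for the mean and SD of 3 replicates. *Apaf1* goes from 2.02 to 5.47 at E15.5 to 0.34 to 0.657 at P30, *Cycs* from 7.57 to 19.5 to 71.2 to 86.3, and *Casp9* shows no called change with age.

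Of 10 caspase inhibitor genes, 9 were tested and 2 were called from E15.5 to P30, both higher, beside 34.6% of all genes. *Xiap*, an inhibitor of caspases, had 2.26, 2.45 and 6.59 RPKM at E15.5 and 7.25, 8.55 and 9.29 RPKM at P30 (log2FC 1.23, SE 0.32, adjusted p 0.00549). The call was lost with scaling by library size alone (log2FC 0.77) and without E15.5 replicate 2 (0.94). The other was *Naip5*, with a log2FC of 3.36 (adjusted p 0.0323), a gene of a cluster of near-identical copies whose reads can be split between them. Its call was lost without E15.5 replicate 2 or 3 or P30 replicate 1 or 2 (adjusted p 0.0729 to 0.166).

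In the list of 15 other BCL2 family genes, 8 were tested and 2 called, beside 34.6% of all genes. *Bnip3*, a hypoxia-induced gene of mitochondrial turnover, rose (log2FC 2.25, adjusted p 9.93e-05) and *Hrk*, a neuronal BH3-only gene, fell by 3.31 on the log2 scale (adjusted p 0.0333). The call of *Hrk* was lost without E15.5 replicate 3 or P30 replicate 2 or 3 (log2FC -3.16 to -2.53). Of 12 p53 pathway genes, 10 were tested, and 1 rose and 4 fell, beside 34.6% of all genes called in either direction. *Trp53* itself fell by 1.82 on the log2 scale (adjusted p 0.00143), from 17.9, 20 and 24.4 RPKM at E15.5 to 8.61, 4.83 and 4.43 RPKM at P30. *Cdkn1a*, the p21 gene and a classical p53 target, fell by 3.21 (adjusted p 0.00543), *Trp53inp1*, a p53-induced gene, by 1.37 (adjusted p 0.00888), and *Mdm4*, a gene whose protein restrains p53, by 1.36 (adjusted p 0.000415). The 1 that rose was *Phlda3*, a p53 target that restrains AKT, with a log2FC of 1.21 (adjusted p 0.0281), and without E15.5 replicate 3 or P30 replicate 1 or 3 its call was lost (adjusted p 0.0674 to 0.127). Among 11 regulators of BH3-only genes, 2 were called, beside 34.6% of all genes, and both were higher: *Mapk10*, which encodes the neuronal kinase JNK3 (log2FC 1.93, adjusted p 2.52e-07), and *Chac1*, a target of the unfolded protein response (log2FC 3.41, adjusted p 0.0478). The call of *Chac1* was lost in 7 of 8 alternative fits, among them edgeR (log2FC 0.75, adjusted p 0.627) and DESeq2 (0.70, adjusted p 0.618). It was also lost in 12 of the 15 fits that left out a library. *Foxo3*, a FOXO factor expressed at 4.85 to 14.7 RPKM in SGNs, had a log2FC of -0.78 (SE 0.32, adjusted p 0.0586).

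At single steps, further genes of these lists were called. From E15.5 to P1, *Cycs* (log2FC 1.87), *Aifm1* (1.45), *Naip5* (4.72) and *Ccng1*, a p53 target (1.43), rose and *Trp53* had -1.10 (adjusted p 0.0422), which edgeR did not call (adjusted p 0.11). Without E15.5 replicate 3, *Aifm1* (adjusted p 0.0542) and *Naip5* (0.0658) were not called, and *Trp53* was not called in 6 of the 15 fits that left out a library. From P1 to P8, *Cdkn1a* fell by 2.62 (adjusted p 0.00164, and 0.0534 with edgeR), while the calls of *Naip1* (log2FC -3.59) and *Naip2* (2.06), again of the near-identical cluster, were lost when any 1 of the P1 or P8 libraries was left out. None of the list genes named here was called from P8 to P14 or from P14 to P30.

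SGNs were next compared with HCs and glia in a fit of all 21 libraries and 17531 genes. At a 4-fold change and an adjusted p under 0.01, none of the 8 tested genes separated the mean of the 5 SGN ages from HCs (26.8% of all genes did) or from glia (24.7%), and none separated HCs from glia (24.4%). Unadjusted p values under 0.05 were found for 3, 4 and 3 of the 8 genes, and edgeR and DESeq2 called 0 in all 3 comparisons. Differences of more than 2-fold at an adjusted p under 0.05 were found for 3 of 8 genes against HCs (45.9% of all genes) and for 3 of 8 against glia (43.3%). The shares of the BCL2 family were thus at or below those of all genes. The scaling matters for the HC libraries, whose TMM factors were 1.37 to 1.39 against 0.74 to 1.19 in SGNs: with library size alone, the median log2FC of all genes moved by -0.555 for mean SGN against HC, by -0.713 for P14 SGN against HC and by 0.491 for HC against glia.

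*Bcl2* was the gene most clearly lower in SGNs. HC libraries had 12.5, 12.6 and 12.6 RPKM, glial libraries 12.3, 34.4 and 10.9, and the 15 SGN libraries 2.28 to 9.24 with a median of 4.81, so that no SGN library reached any HC or glial library. The log2FC of mean SGN was -1.29 (SE 0.27, adjusted p 0.000408) against HC and -1.65 (SE 0.28, adjusted p 6.14e-05) against glia. At matched early age, P8 SGN against P8 glia gave -1.65 (SE 0.37, adjusted p 0.00131). Near hearing onset, P14 SGN against P12 HC gave -0.79 (SE 0.37, adjusted p 0.0887). HC and glia were not told apart (log2FC -0.37, SE 0.34, adjusted p 0.397).

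*Bcl2l2* was higher in SGNs than in HCs, which had 6.07, 10.8 and 6.22 RPKM. Mean SGN against HC gave a log2FC of 1.29 (SE 0.26, adjusted p 0.000272), and with library size alone 0.73, under the 2-fold limit. P14 SGN against P12 HC gave 2.10 (SE 0.29, adjusted p 6.18e-06), the 1 call among 8 genes at 4-fold, where 23.1% of all genes were called, and it sat close to the limit: the log2FC was 1.85 with DESeq2, 1.89 with DESeq2 size factors, 1.38 with library size alone, 1.98 without P14 replicate 2 and 1.96 without HC replicate 3, none of which reached 4-fold, while the adjusted p stayed at or below 0.000332 in these 5 fits. At 2-fold, 2 of 8 genes were called in that comparison, against 41.1% of all genes. E15.5 SGNs, at 4.7 to 5.84 RPKM, lay below all HC libraries. Glia had 12.1, 17.9 and 6.53 RPKM, which overlapped with P1 SGNs and lay below P8 SGNs (log2FC of P8 SGN against glia 1.10, SE 0.29, adjusted p 0.0043).

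In glia, *Mcl1* and *Bcl2l11* were both higher than in the mean of the 5 SGN ages, but libraries overlapped. *Bcl2l11* in E15.5 replicate 1 (11.4 RPKM) lay within the glial range. *Mcl1* in glial replicate 2 (37.4 RPKM) lay below P8 replicate 1 (40.7) and E15.5 replicate 2 (39.6). Glial libraries also carried the connective tissue markers at 204.9 to 367.1 RPKM, against 0.0854 to 58.7 in SGNs and 22.4 to 24.5 in HCs. The part of these markers in the differences from glia was not tested. *Mcl1* had 90.5, 37.4 and 75 RPKM in glia and 23.8, 23.6 and 23.6 in HCs. Mean SGN against glia gave -1.21 (SE 0.22, adjusted p 0.00013) and HC against glia -1.48 (SE 0.31, adjusted p 0.000591; -0.98 with library size alone), while SGN and HC were not told apart (0.27, SE 0.25, adjusted p 0.384). Without glial replicate 1 the log2FC of *Mcl1* against mean SGN was -0.86. *Bcl2l11* had 11.7, 8.22 and 7.95 RPKM in glia and 4.55, 4.52 and 5.52 in HCs. Mean SGN against glia gave -1.44 (SE 0.27, adjusted p 0.000161) and P14 SGN against P12 HC -1.41 (SE 0.45, adjusted p 0.0142). That last call was lost without P14 replicate 1 or 3 or HC replicate 3 (adjusted p 0.0508 to 0.0674).

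Against glia at P8, none of the 8 genes was called at 4-fold by limma-voom (20.9% of all genes), nor by edgeR or DESeq2, although 4 had an unadjusted p under 0.05, and 4 were called at 2-fold (39.6%), namely *Bcl2*, *Bcl2l2*, *Mcl1* (log2FC -1.01, adjusted p 0.00562) and *Bcl2l11* (-1.15, adjusted p 0.00848). The P8 SGN libraries carried glial markers at 414 to 566 RPKM, the most of any SGN age, against 5125 to 7283 in glia. *Mcl1* fell short of 2-fold or of the p threshold without P8 replicate 2 or 3 or glial replicate 1 or 3 (-0.95 to -0.67), *Bcl2l2* without glial replicate 3 (0.82), with DESeq2 (0.94), with library size alone (0.97) and with sample quality weights (adjusted p 0.0694), and *Bcl2l11* without glial replicate 1 (-0.91).

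**Figure D5:**
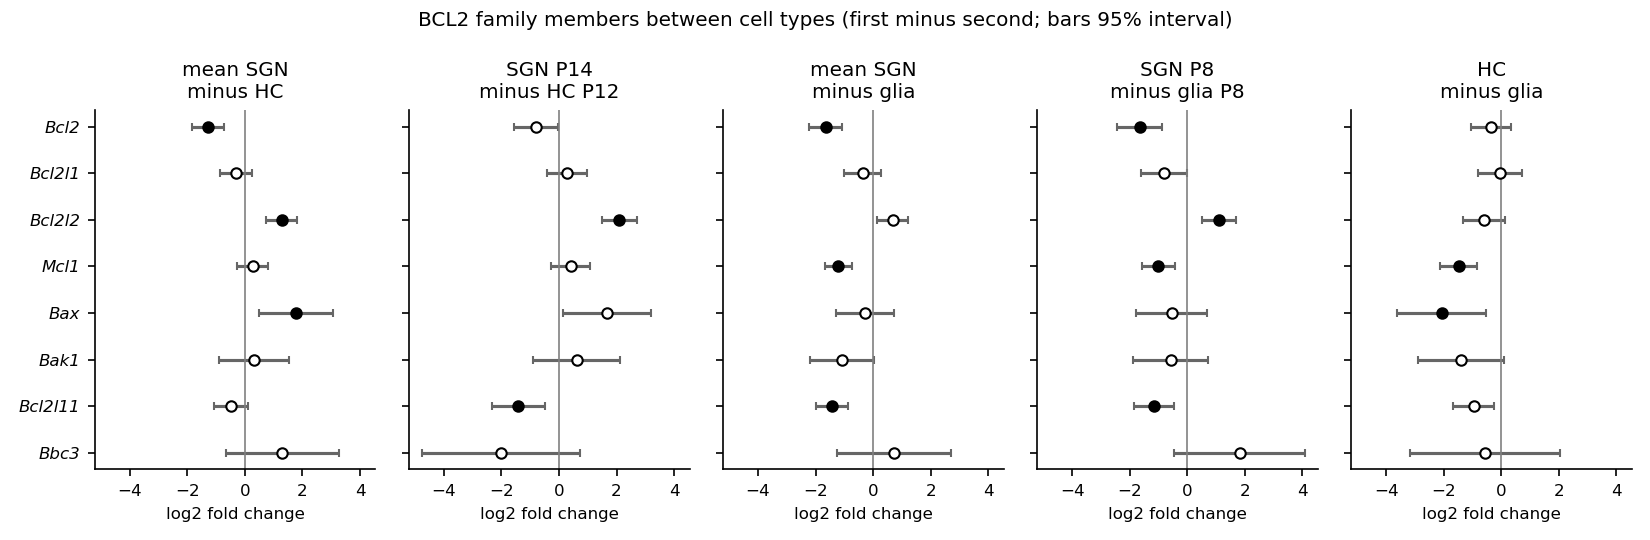
Log2 fold changes (first group minus second) of the 8 tested genes in 5 comparisons of cell types. Points are limma-voom estimates, bars 95% intervals, and filled points genes called at a 2-fold change and an adjusted p under 0.05. *Bcl2* is filled on the negative side in mean SGN minus HC, mean SGN minus glia and SGN P8 minus glia, and *Bcl2l2* is filled on the positive side in 3 of the 5 panels.

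*Bax* was lower in HCs, at 0.339, 2.02 and 3.23 RPKM, than in the 15 SGN libraries at 2 to 8.74, with a partial overlap. Mean SGN against HC gave a log2FC of 1.79 (SE 0.62, adjusted p 0.0193) and HC against glia -2.08 (SE 0.74, adjusted p 0.027). Both were lost without HC replicate 1, the library at 0.339 RPKM (0.97 and -1.25), and the second also without glial replicate 1 or 3 (adjusted p 0.0698 and 0.0808). Both were also lost with library size alone (adjusted p 0.101 and 0.0906). HC against glia thus had 2 of 8 genes at 2-fold, *Mcl1* and *Bax*, against 41.9% of all genes. *Bak1* had 11, 10.8 and 1.45 RPKM in glia and was not called in these fits, but it was in HC against glia when glial replicate 3, at 1.45, was left out. The BH3-only gene *Bbc3* had 45, 0 and 24 counts in the glial libraries and 6, 10 and 11 in HCs, and it was called in no comparison of cell types.

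Among the wider lists, several genes were called against both HCs and glia. SGNs had more *Bid*, which encodes a BH3-only protein cut by caspase-8 (log2FC 3.65 against HC, adjusted p 0.00107, and 3.93 against glia, adjusted p 0.00099), and less *Casp8*, the initiator caspase of death receptors (-3.68, adjusted p 0.00406, and -3.97, adjusted p 0.00334). They also had less *Cflar*, whose protein blocks caspase-8 (-2.64 against HC, adjusted p 3.19e-07), and less *Foxo1*, a FOXO factor (-4.57 against glia, adjusted p 7.74e-10). *Casp9* was higher by 2.09 (adjusted p 0.00101) and 2.14 (adjusted p 0.00288). The near-identical *Naip2*, *Naip5* and *Naip6* were higher by 5.43 to 6.84 against HC and 4.22 to 6.49 against glia, with reads that the copies may share. *Apaf1* was called against neither (0.89, adjusted p 0.187, and -0.53, adjusted p 0.356).

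Several of these calls rest on single libraries. Against HC, the calls of *Casp9* (log2FC 1.92) and *Bid* (3.23) were lost without HC replicate 3, that of *Casp9* also without E15.5 replicate 3 (1.97), and that of *Casp8* without any 1 of the HC replicates. Against glia, those of *Casp8*, *Bid* and *Naip5* were lost without glial replicate 3 and that of *Casp9* without glial replicate 1 or 2. Sample quality weights ended the calls against glia of *Naip2* (adjusted p 0.0351), *Naip5* (0.11), *Naip6* (0.0437), *Casp8* (0.0189), *Bid* (0.107) and *Casp9* (0.0622). Against HC, edgeR ended those of *Naip6* (adjusted p 0.0155) and *Casp8* (0.0558), DESeq2 those of *Casp8* (0.0373) and *Casp9* (log2FC 1.93), and library size alone that of *Casp9* (1.54).

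Between HCs and glia, the 6 largest calls of the lists were *Phlda3* (log2FC -6.73), *Perp*, a p53 target of cell junctions (6.29), *Bcl2l14* (3.93), *Bad*, a BH3-only gene regulated by survival kinases (3.06), *Trp53inp1* (2.74) and *Mapk10* (2.67). The call of *Perp* was lost without glial replicate 1 or 3, that of *Bad* without glial replicate 1, and that of *Bcl2l14* without any 1 of the HC or glial replicates.

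The genes whose levels ran most like those of the members were sought by Pearson's r of log2(TPM + 1) over all 21 libraries, which share the groups and the amplification, among genes with a mean of more than 5 TPM. For *Bcl2l2* they were ENSMUSG00000109836, for which no symbol was matched (r 0.956), *Aldoa* (0.936) and *Kcnk1* (0.932). Those of *Bcl2l11* were *Slc4a7* (0.957), *Bmi1* (0.932) and *Srsf3* (0.93), and those of *Bbc3* were *Acvr2a* (0.842), *Fam171a2* (0.84) and *Sh3bgrl* (0.836). For *Bcl2* they were *Zbtb44* (0.944), *Tjp1* (0.937) and *Sirt2* (0.937). Over the 15 SGN libraries, *Bcl2l11* and *Bbc3* had an r of 0.728 with each other, and *Bcl2l2* had -0.394 with *Bcl2l11* and -0.519 with *Bbc3*. All share the same libraries and depths, and the r values are given as descriptions. They rest on TPM, whose scale against RPKM differed between libraries. For *Bcl2*, P14 replicates 1 and 2 had 9.24 and 5.40 RPKM but 19.9 and 4.32 TPM. Such a factor is shared by all genes of a library and can shift every r, which was not tested.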

How the data were processed

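RNA-Seq was made from 21 libraries of SGNs, HCs and glia amplified with NuGEN Ovation kits. Per the labels and the study's methods, the authors mapped reads to mm10 with STAR 2.4.0i and deposited raw counts per gene of GENCODE vM15 from featureCounts. Strand, multimapping and pair settings are not given in the sources used here. A median of 67.9% of counts between 1 and 20 were even. Counts may therefore not all be independent reads, and limits drawn from small counts may be too tight.

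Total counts set the precision, and limits from counts cover counting error only. Symbols came from GENCODE M21. Counts with more than 1 CPM in all replicates of a group were normalized with TMM (edgeR 4.0.16) and fitted with limma-voom (limma 3.58.1, R 4.3.3), two-sided with Benjamini-Hochberg adjustment: the 15 SGN libraries for ages (2-fold, 0.05) and all 21 for cell types (4-fold, 0.01). DESeq2 1.42.0 and edgeR's quasi-likelihood test were alternatives. RPKM in place of the planned TPM was chosen after seeing that TPM is not on the scale of the fits. Samples were grouped by their labels, which number replicates.

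Members and gene lists were chosen with earlier results of these data known. All members were named, with called list genes, at most 6 per comparison of cell types, and *Casp9* and *Apaf1* whatever their values; some results of the lists are not reported here. Scripts were tested on simulated data.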

Additional observations from a re-analysis of the deposited data

How the results depend on the processing

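The counts of called members stayed within 1.5 times under most alternatives. From E15.5 to P1 sample quality weights left 0 genes called, and leaving out 1 library gave 1 to 2 (2 without E15.5 replicate 2). From P1 to P8, 1 gene, *Bcl2l2*, was called without a fold limit, and leaving out 1 library gave 0 to 1 (1 without P1 replicate 3 or P8 replicate 2). From P8 to P14, sample quality weights gave 1 and leaving out 1 library 0 to 1 (1 without E15.5 replicate 3, *Bcl2l1*). An adjusted p under 0.01 left 2 genes different among ages. For SGN P14 against HC P12, DESeq2 and DESeq2 size factors gave 0, a 2-fold limit 2, and leaving out 1 library 0 to 1. With library size alone the count was 1, but the gene was *Bcl2l11*. At 2-fold and 0.05, the counts were 3 for mean SGN against HC, 3 against glia, 4 for P8 SGN against glia and 2 for HC against glia. At the 4-fold limit, HC against glia gave 0 to 1 when 1 library was left out (1, *Bak1*, without glial replicate 3). No result reversed its direction. Ranges of libraries were compared in RPKM, and some that were apart overlapped in TPM. *Bcl2l1* had 7.91 TPM in P14 replicate 2 and 13.9 in P1 replicate 3. *Mcl1* had 32.3 TPM in P30 replicate 2 and 26.9 in P8 replicate 3. *Bcl2* had 19.9 TPM in P14 replicate 1 and 11.9 in glial replicate 3. *Bcl2l2* and *Bcl2l11* are described above.

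Deviations of libraries that share a replicate number were correlated above 0.1 for all 3 numbers between P8 and P30 (0.378, 0.172 and 0.146) and not in the other pairs of groups (for P14 and P30, 0.371, 0.22 and 0.0818), and the labels do not say that a number marks a shared batch, so the numbers were not taken to pair the samples. With the replicate block, 3 members were called from E15.5 to P30, as without it (library size alone and leaving out E15.5 replicate 3 each gave 4), and no count of called members changed. Scaling by library size alone moved the median of all genes by -0.482 from E15.5 to P30. Depth limits *Pmaip1* and *Bbc3*, which had at most 24 and 202 counts per library.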
